A study of Arabidopsis thaliana with 12 samples.

Results

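The comparison described here sets roots of the quintuple Arabidopsis mutant bpc1,2,3,4,6 (bpc) against wild-type roots (WT, accession Col-0), both after 1 h with the synthetic cytokinin benzyladenine (BA). It used every gene with at least 0.5 RPKM (reads scaled to the length of the gene and the size of the library) in 3 or more of the 12 RNA-seq libraries of the series. That rule kept 20776 of the 33602 genes in the deposited table, while 25442 had a value above 0 somewhere among the 12. The third highest RPKM was 0.50002 for AT2G07769, the gene nearest above the limit, and 0.499629 for AT1G11362, the nearest below it.

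The seedlings were 10 days old, 12 were used for each treatment, and the roots were cut off after the treatment. The 4 groups of 3 libraries were bpc with 5 µM BA, WT with 5 µM BA, bpc with vehicle and WT with vehicle, the vehicle being 0.01% of a 5 N NaOH solution. The 6 libraries with BA carry the comparison, and the 6 with vehicle are separate libraries in which the same genotype difference can be read. The labels name neither the mutant lines nor the insertion sites, and give no separate culture or pool of plants for each library. The p-values therefore reflect the variation among these libraries alone, which may be technical.

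BASIC PENTACYSTEINE (BPC) proteins are plant transcription factors that bind GA repeats in DNA, and in Arabidopsis BPC6 is known to recruit Polycomb repressors to such repeats. Cytokinin is sensed by histidine kinase receptors, which pass phosphate through phosphotransfer proteins to type-B response regulators. These activate transcription, among other targets, of the type-A response regulators, which feed back negatively on the pathway. In roots cytokinin limits meristem size and affects vascular development and nutrient uptake.

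The steps of the RPKM values implied 9427912 to 11669456 reads for the bpc BA libraries and 11330998 and 12969540 for WT BA replicates 3 and 2, with 1 read at 1 kb worth 0.0717 to 0.106 RPKM over all 12 libraries. WT BA replicate 1 had a length-weighted RPKM sum at 86.5% of the median, while the other 11 libraries had 99.8% to 100.2%. Its implied read total, 11653485, equals the one implied for WT vehicle replicate 2, so that this total may be wrong and the RPKM values of the library may be too low throughout. Its values were used as deposited, and for the genes and lists described, the calls that changed with this library rescaled are named. The rescaling moved the median log2 difference of all genes to 0.02, against 0.08 as deposited. Both vehicle replicates 3 stood apart from the other vehicle libraries. The SD of their log2 differences from the other replicates of their group was 0.452 to 0.496, against 0.292 to 0.332 between all other pairs of replicates.

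Whole-root identity was checked against marker lists. All 19 endodermis, 20 root hair, 4 phloem and 9 stem cell niche and cap genes, and 14 of 15 xylem genes, were above 0 in every BA library of both genotypes. Transcripts of 20 nuclear photosynthesis genes, the markers of shoot tissue, summed to 211 to 240 RPKM in bpc and 225 to 305 RPKM in WT, and 17 of them in bpc and 20 in WT were above 0 in all 3 BA libraries. In whole roots, fewer cells of a type and less RNA per cell cannot be told apart.

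With BA, 268 genes (1.29% of those tested) were higher and 213 (1.03%) were lower in bpc than in WT at an adjusted p under 0.05 (limma on log2(RPKM + 0.5), Benjamini-Hochberg), 2.32% in all. The falls were the deeper changes. The median log2 difference was 0.77 among the higher genes, with quartiles of 0.63 and 1.02, and −1.07 among the lower genes, with quartiles of −1.39 and −0.80. A difference of at least 2-fold was found for 72 of the higher genes (0.347%) and 117 of the lower genes (0.563%). The count of 72 fell to 38 without WT BA replicate 1 and to 41, 40 and 42 without bpc BA replicate 1, 2 and 3, and the count of 117 to 81 to 102 without 1 BA library. The 3 bpc and 3 WT libraries did not overlap for any of the 481 genes, nor for 25.6% of all genes tested. Lack of overlap in a called gene named below therefore adds nothing to its call.

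The balance of the calls between higher and lower changed with the scaling and with the libraries used. With WT BA replicate 1 rescaled, 267 genes (1.29%) were higher and 369 (1.78%) were lower, 3.06% in all, so that 42.0% of the calls were higher in bpc, against 55.7% as deposited. Of the 268 higher genes, 238 were called again and 30 were not, while 29 others were added. All 213 lower genes were called again and 156 were added. Without both vehicle replicates 3, all 268 and all 213 were called again among 809 higher and 457 lower genes. Lower calls also outnumbered higher ones without bpc BA replicate 1 (71 higher, 101 lower), replicate 2 (69 and 109) or replicate 3 (77 and 113) and without WT BA replicate 1 (90 and 190). They did so as well after conversion to TPM (254 and 357), median-of-ratios scaling (217 and 404) and quantile normalization (224 and 384). Higher calls outnumbered lower ones without WT BA replicate 2 (169 and 114) or replicate 3 (158 and 109).

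Within the BPC family, the transcripts of 3 of the 5 genes named in the genotype were low in bpc with BA. BPC6 (AT5G42520) stood at 0.718, 2.81 and 0.814 RPKM in bpc, against 24.1, 31.6 and 27.7 RPKM in WT. BPC1 (AT2G01930) had 1.66, 1.61 and 0.935 RPKM in bpc and 15.5, 20.1 and 14.5 RPKM in WT. BPC2 (AT1G14685) had 1.28, 1.51 and 1.37 RPKM in bpc and 15.1, 16.6 and 16.4 RPKM in WT. The groups were far apart for all 3 genes, with bpc at 5.20%, 8.41% and 8.65% of the WT mean, and bpc replicate 2 was the highest of its group for BPC6.

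The other BPC genes differed less. BPC4 (AT2G21240) had 17.5, 16.2 and 17.0 RPKM in bpc, against 22.7, 24.8 and 26.2 RPKM in WT, so that bpc kept 68.9% of the WT mean although the gene is named in the genotype. BPC3 (AT1G68120), also named, had 3.70, 2.70 and 4.14 RPKM in bpc and 2.35, 1.62 and 2.51 RPKM in WT. BPC3 was thus not low in the libraries labelled as its mutant, and its log2 difference of 0.59 ± 0.20 (SE) did not pass (limma adjusted p = 0.17). With vehicle BPC3 was called higher in bpc, at 3.95, 2.96 and 2.57 RPKM, against 1.21, 1.27 and 1.68 RPKM in WT (0.95 ± 0.20, limma adjusted p = 0.031, and 0.06 with a replicate block and the 2 vehicle groups alone). With the insertion sites not given, reads from outside a disrupted part check nothing for these genes. BPC5 (AT4G38910), which the genotype does not name, had 2.91, 2.51 and 2.66 RPKM in bpc, against 1.18, 1.43 and 1.71 RPKM in WT, and was called higher. BPC7 (AT2G35550) overlapped between the genotypes at 0.321 to 0.685 RPKM in bpc and 0.331 to 1.04 RPKM in WT. Of the 7 genes, 1 was higher and 4 were lower, and the median log2 difference was −0.52, against 0.08 for all genes. The calls of BPC4 and BPC5 were lost without any 1 of the 6 BA libraries (log2 −0.58 to −0.48 and 0.62 to 0.82). That of BPC4 was also lost without bpc vehicle replicate 2, and that of BPC5 without WT vehicle replicate 1 or 2 or bpc vehicle replicate 1 and with quantile normalization, all within these ranges.

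**Figure D1:**
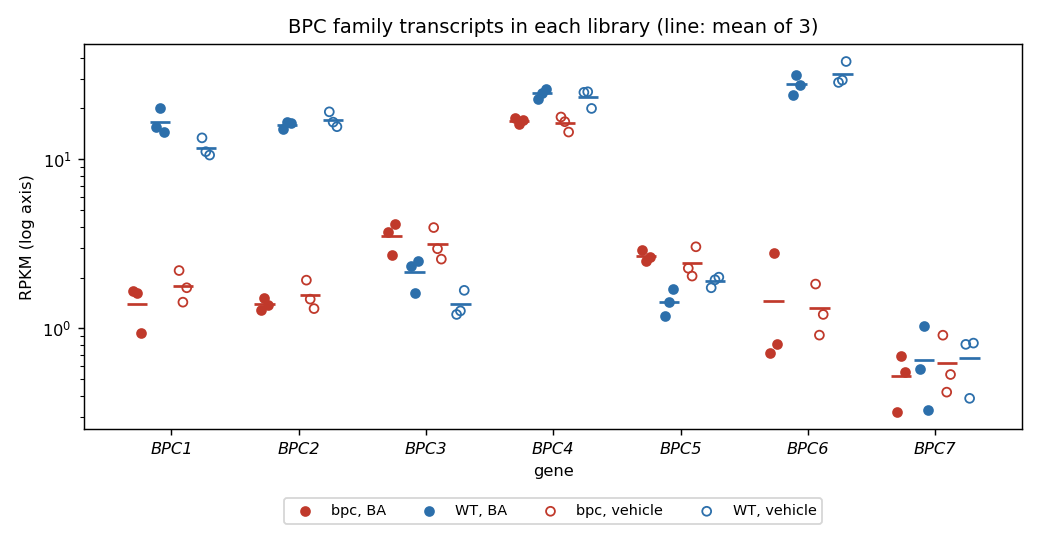
RPKM of the 7 BPC genes in each library on a log axis, bpc in red left of WT in blue, filled for BA and open for vehicle, with a line at the mean of 3. BPC1, BPC2 and BPC6 sit at 0.718 to 2.81 RPKM in bpc with BA and at 14.5 to 31.6 RPKM in WT with BA, and the vehicle libraries of each genotype lie near those with BA.

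The 12 largest rises in bpc, among called genes with no overlap and a mean of at least 2 RPKM in one genotype, were led by a metabolic enzyme and by genes of water stress and cold. NADP-ME1 (AT2G19900, chromosome 2, 8591808 to 8595559), a cytosolic malic enzyme that makes pyruvate and NADPH from malate, had 10.4, 10.5 and 10.1 RPKM in bpc, against 1.27, 1.33 and 1.78 RPKM in WT. Its replicates were tight and the genotypes far apart, by log2 2.47 ± 0.15 (limma adjusted p = 2.4e-06). It was the only one of 6 malic enzyme genes called, and the list median was 0.13. KIN1 (AT5G15960, chromosome 5, 5209717 to 5210826), a small cold- and abscisic acid-inducible protein, had 338, 336 and 342 RPKM in bpc and 67.8, 109 and 69.9 RPKM in WT, a difference of 2.07 ± 0.20 (limma adjusted p = 0.00015). RAB18 (AT5G66400), a dehydrin, had 18.1, 5.27 and 8.76 RPKM in bpc and 1.16, 3.40 and 1.8 RPKM in WT. Here the lowest bpc library lay close to the highest WT library, and the difference was 2.02 ± 0.45 (limma adjusted p = 0.036).

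Regulators and a gene named after a family of cytokinin enzymes were also among these 12. BLH4 (AT2G23760), a BEL1-like homeodomain protein that partners KNOX proteins, had 3.68, 4.97 and 5.26 RPKM in bpc, against 0.642, 1.27 and 1.01 RPKM in WT (log2 1.81 ± 0.25, limma adjusted p = 0.0023). LBD26 (AT3G27940), a LOB-domain protein, had 6.25, 6.42 and 5.02 RPKM in bpc and 0.464, 2.29 and 0.954 RPKM in WT (2.01 ± 0.46, limma adjusted p = 0.039). For both genes all bpc libraries lay above all WT libraries, as the choice of these 12 required. LOG9 (AT5G26140), annotated as a lysine decarboxylase family protein and named after the LONELY GUY enzymes that release active cytokinin, had 2.18, 2.96 and 2.46 RPKM in bpc and 0.397, 0.535 and 0.204 RPKM in WT (1.8 ± 0.25, limma adjusted p = 0.0023). LOG9 rested on low WT values.

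The other 6 of the 12 were less characterised. Above 10 RPKM in bpc were AT2G27402, AT2G22590, AT5G08250 and AT2G37870. AT2G27402, annotated as a plastid transcriptionally active protein, had 24.0, 30.0 and 18.7 RPKM in bpc, against 5.94, 5.80 and 5.69 RPKM in WT. The cytochrome P450 gene AT5G08250 had 10.4, 10.2 and 10.3 RPKM in bpc and 1.92, 3.27 and 2.37 RPKM in WT. In these 2 genes the spread of one genotype was very small beside the difference between genotypes. The UDP-glycosyltransferase gene AT2G22590 averaged 12.8 ± 1.38 RPKM in bpc and 3.08 ± 0.987 RPKM in WT, and the lipid-transfer family gene AT2G37870 averaged 14.4 ± 2.36 RPKM in bpc and 3.77 ± 1.28 RPKM in WT (SD, n = 3 each). AT3G48510 averaged 2.98 ± 0.711 RPKM in bpc and 0.420 ± 0.109 RPKM in WT. The log2 differences of these 5 genes ran over 1.83 to 1.95, with limma adjusted p-values of 9.2e-05 to 0.0011. AT5G46295, an uncharacterised gene, had 1.88, 3.12 and 1.29 RPKM in bpc and 0.419, 0 and 0 RPKM in WT. Among the 12, only the calls of AT5G46295, RAB18 and LBD26 were lost under any of the 27 alternatives. AT5G46295 lost its call without WT BA replicate 2 or 3 or bpc BA replicate 1 or 2 (log2 1.75 to 2.06). RAB18 lost it without WT BA replicate 1 or 3, bpc BA replicate 1 or 3 or bpc vehicle replicate 1, with no filter and with a pseudocount of 0.1 (1.57 to 2.23). LBD26 lost it without WT BA replicate 1 or 3, any bpc BA library or WT vehicle replicate 1, with no filter and with a pseudocount of 0.1 (1.66 to 2.41).

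The 12 largest falls included BPC6, BPC1 and BPC2 and were led by a cell-wall gene. AT4G08410 (chromosome 4, 5338819 to 5341209), a proline-rich extensin-like gene of the family that builds the wall's hydroxyproline-rich glycoprotein network, had 0.202, 0.215 and 0.150 RPKM in bpc, against 28.8, 40.9 and 27.3 RPKM in WT. The bpc mean was 0.585% of the WT mean, and the log2 difference was −5.55 ± 0.41 (limma adjusted p = 1.9e-05). PIP2;7 (AT4G35100, chromosome 4, 16708361 to 16710407), a plasma membrane aquaporin, had 44.6, 48.5 and 48.9 RPKM in bpc and 319, 372 and 402 RPKM in WT. It was the most abundant transcript among the 12, with bpc at 13.0% of the WT mean (−2.92 ± 0.15, limma adjusted p = 1e-06). AT4G12500, of the lipid-transfer family and one of the EARLI1-AZI1 cluster on chromosome 4, had 0.771, 0.705 and 0.409 RPKM in bpc, against 8.05, 12.2 and 9.64 RPKM in WT (−3.21 ± 0.19, limma adjusted p = 2.4e-06). For all 3 genes the genotypes were separated by several-fold and no library came near the other group.

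The remaining 6 had under 1 RPKM in every bpc BA library. AT2G15510 was listed at 0 in all 3 bpc BA libraries, against 1.93, 2.28 and 2.35 RPKM in WT. Its neighbour AT2G15520 (the genes lie at 6766622 to 6770676 and 6770784 to 6772235 on chromosome 2) had 0.0590, 0 and 0 RPKM in bpc and 1.83, 2.87 and 2.80 RPKM in WT. AT3G29120 had 0, 0.132 and 0 RPKM in bpc and 2.23, 2.67 and 1.78 RPKM in WT. These 3 genes, annotated as uncharacterised proteins, were thus read in WT and nearly unread in bpc. AT1G05950, also uncharacterised, averaged 0.117 ± 0.0592 RPKM in bpc and 3.27 ± 0.163 RPKM in WT, and the germin-like protein gene GER2 (AT5G39190) averaged 0.179 ± 0.0695 RPKM in bpc and 3.42 ± 0.775 RPKM in WT (SD, n = 3 each). SADHU10-1 (AT3G58865), a non-coding retrotransposon, had 0.816, 0.774 and 0.898 RPKM in bpc, against 6.81, 7.26 and 7.94 RPKM in WT. None of the 12 falls lost its call under any of the 27 alternatives. Reads of near-identical copies may have been split or shared by the authors' counting, which makes single values uncertain for AT4G08410, AT4G12500, AT2G15510 and AT2G15520, GER2, and KIN1 and KIN2. No source used here states whether reads were counted by strand.

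**Figure D2:**
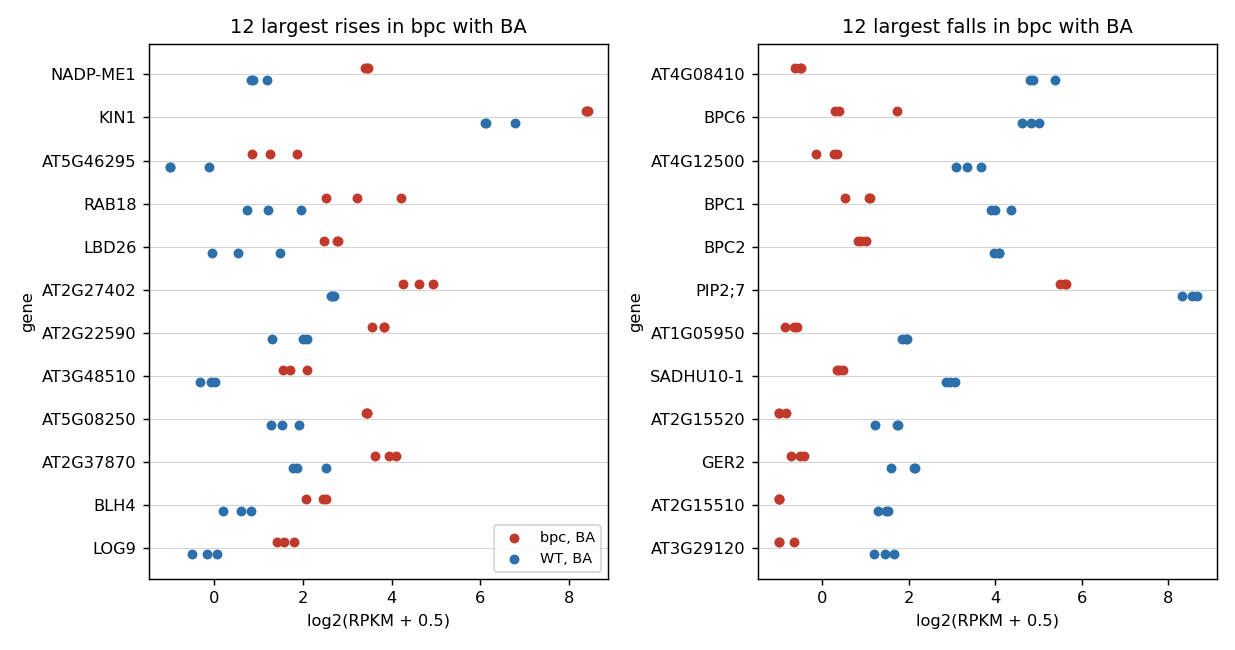
Level, as log2(RPKM + 0.5), of the 12 largest rises (left) and 12 largest falls (right) in bpc with BA, bpc libraries in red above WT libraries in blue, 3 points each. By the choice of genes, all points of one genotype lie apart from all points of the other. NADP-ME1 (log2 difference 2.47) is at the top left and AT4G08410 (−5.55) at the top right.

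The gene lists were chosen with earlier results of these data known. Their counts, set beside those of all genes, are therefore descriptions and no independent support. Among 8 genes of the EARLI1-AZI1 cluster, which encode hybrid proline-rich and lipid-transfer-like proteins, 0 were higher and 4 were lower. The median log2 difference was −0.49, while 1.03% of all genes were lower and their median was 0.08. AIR1 (AT4G12550), an auxin-induced root gene, had 106, 100 and 107 RPKM in bpc, against 225, 197 and 254 RPKM in WT (−1.1 ± 0.12, limma adjusted p = 0.00047). Its neighbour AT4G12545 had 108, 116 and 114 RPKM in bpc and 169, 145 and 192 RPKM in WT (−0.57 ± 0.13, limma adjusted p = 0.035). AT4G12490, next to AT4G12500, had 11.4, 12.7 and 18.9 RPKM in bpc and 34.8, 48.7 and 34.4 RPKM in WT (−1.44 ± 0.26, limma adjusted p = 0.014). No bpc library overlapped a WT library in these 3 genes, as in every called gene. EARLI1 (AT4G12480) itself, at 177 to 231 RPKM in bpc and 223 to 367 RPKM in WT, did not pass (limma adjusted p = 0.35). AT4G12490 lost its call without WT BA replicate 2 or bpc BA replicate 1 or 2 (−1.37 to −1.27). AT4G12545 lost it without WT BA replicate 1 or 3, any bpc BA library or bpc vehicle replicate 1 (−0.59 to −0.48).

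Of 18 extensins tested, AT4G08410 was the only one called (median 0.27, or 0.20 with WT BA replicate 1 rescaled). The neighbouring locus AT4G08400 averaged 40.7 RPKM in bpc and 34.8 RPKM in WT, a log2 difference of 0.24 ± 0.38 (limma adjusted p = 0.83). None of 17 expansins, proteins that loosen walls, was called (median −0.03), while 2.32% of all genes were called.

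Cytokinin signalling genes gave 1 call with BA present, in lists of 10, 8 and 6 tested genes, a count too small to be read apart from the 2.32% of all genes called. None of 10 type-A response regulators, the feedback targets of cytokinin, was called, and the list median was 0 with members from −0.55 to 0.28. The 2 most abundant were ARR4 (AT1G10470), at 241, 260 and 249 RPKM in bpc and 208, 211 and 261 RPKM in WT, and ARR7 (AT1G19050), at 134, 150 and 143 RPKM in bpc and 146, 201 and 165 RPKM in WT. The genotypes overlapped for both, with log2 differences of 0.15 ± 0.33 and −0.25 ± 0.23. Upstream of them, none of 8 receptors and phosphotransfer proteins was called (median 0.10), among them AHP1 (AT3G21510) at 124 to 156 RPKM in bpc and 124 to 140 RPKM in WT and AHP3 (AT5G39340) at 53.4 to 60.2 RPKM in bpc and 48.0 to 56.3 RPKM in WT. Of 6 type-B response regulators, the transcription factors of the pathway, ARR12 (AT2G25180) was lower. It had 19.2, 18.3 and 17.3 RPKM in bpc, against 30.3, 34.1 and 33.2 RPKM in WT, which left a wide gap between the genotypes (−0.81 ± 0.15, limma adjusted p = 0.014). ARR12 lost its call without WT BA replicate 2 or 3 or any bpc BA library (−0.85 to −0.78).

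The lists of cytokinin metabolism gave 1 call, while 2.32% of all genes were called. LOG9, higher in bpc by log2 1.8 as given above, was not in these lists. LOG8 (AT5G11950), a LONELY GUY enzyme, had 18, 20.1 and 20.1 RPKM in bpc, against 12.3, 13.3 and 13.0 RPKM in WT (0.57 ± 0.12, limma adjusted p = 0.026), the only one of 15 biosynthesis genes called (median −0.04). This call was lost without any 1 of the 6 BA libraries (0.54 to 0.62). None of 9 breakdown and conjugation genes was called (median 0.19, or 0.12 with WT BA replicate 1 rescaled, against 0.08 and 0.02 for all genes). The 2 most abundant were the cytokinin N-glucosyltransferase UGT76C2 (AT5G05860), at 27.1, 32.0 and 26.6 RPKM in bpc and 21.8, 29.3 and 25.7 RPKM in WT, and UGT85A1 (AT1G22400), at 29.6, 24.9 and 29.2 RPKM in bpc and 23.9, 24.5 and 24.7 RPKM in WT. Of 9 cytokinin response factors none was called (median −0.01). CRF4 (AT4G27950) averaged 16.2 ± 0.981 RPKM in bpc and 16.3 ± 1.78 RPKM in WT (SD, n = 3 each). CRF3 (AT5G53290) had 9.93 to 12.8 RPKM in bpc and 14 to 18.8 RPKM in WT (−0.46 ± 0.20, limma adjusted p = 0.30). CRF3 was called lower in 2 alternatives that rescaled WT BA replicate 1, with the 2 BA groups alone and without both vehicle replicates 3. None of 11 CC-type glutaredoxins, small redox proteins (median 0.05), of 26 Aux/IAA repressors (−0.03), of 14 auxin carriers (0.08) or of 11 gibberellin oxidases (−0.08) was called.

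Developmental regulators that GA-binding factors and Polycomb are known to control were mostly under the limit on low values or not called. Of 18 floral MADS-box genes, 13 did not reach the limit on low values and 5 were tested. Of all genes, 1.29% were higher and 1.03% lower. PISTILLATA (PI, AT5G20240), a petal and stamen identity gene, was higher in bpc at 1.8, 2.42 and 2.23 RPKM, against 0.470, 0.422 and 0.564 RPKM in WT (1.42 ± 0.27, limma adjusted p = 0.019). SOC1 (AT2G45660), which promotes flowering, was lower at 5.39, 4.09 and 4.82 RPKM in bpc, against 11.8, 12.9 and 11.5 RPKM in WT (−1.26 ± 0.18, limma adjusted p = 0.0029). The genotypes were separated for both, as for every called gene. PI stayed at a low level in both genotypes. PI lost its call without WT BA replicate 1 or 2 or any bpc BA library (1.35 to 1.52). Of 8 root-expressed MADS-box genes, AGL19 (AT4G22950) was lower, with 2.6, 2.91 and 1.84 RPKM in bpc and 5.34, 7.59 and 4.60 RPKM in WT (−1.09 ± 0.19, limma adjusted p = 0.0093). AGL19 and SOC1 kept their calls under all 27 alternatives.

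None of 7 KNOX genes, homeobox regulators of meristems, was called as deposited (median −0.11), and with WT BA replicate 1 rescaled KNAT1 (AT4G08150) was lower. KNAT1 had 4.33, 2.06 and 2.04 RPKM in bpc, against 5.23, 8.46 and 5.72 RPKM in WT, a log2 difference of −1.12 ± 0.27 as deposited (limma adjusted p = 0.056) and −1.18 rescaled (limma adjusted p = 0.039). The most abundant members KNAT7 (AT1G62990; 34.6 to 40.0 RPKM in bpc, 34.0 to 45.0 RPKM in WT) and KNAT5 (AT4G32040; 36.8 to 40.2 RPKM in bpc, 28.0 to 35.6 RPKM in WT) differed by −0.11 ± 0.17 and 0.24 ± 0.13. Of 16 Polycomb components, none was called (median 0.17). VRN1 (AT3G18990), needed for vernalization, had 48.4 to 52.9 RPKM in bpc and 40.3 to 47.9 RPKM in WT, and VEL1 (AT4G30200), a relative of VRN5 and VIN3, had 40.8 to 45.5 RPKM in bpc and 30.3 to 41.6 RPKM in WT. Of the embryo and seed programme only 1 of 7 genes was tested, and it was not called (log2 −0.10).

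Several cold- and abscisic acid-inducible genes were higher in bpc. Of 20 tested, 6 were higher and 0 were lower, 19 had a positive difference and the median was 0.67. Over all genes 1.29% were higher and 1.03% were lower, and the median was 0.08. The list was chosen with earlier results of these data known. KIN2 (AT5G15970), the neighbour of KIN1, had 510, 501 and 511 RPKM in bpc, against 210, 225 and 253 RPKM in WT (1.15 ± 0.24, limma adjusted p = 0.025). RD29A (AT5G52310), a desiccation-responsive protein, had 198, 206 and 217 RPKM in bpc and 70.7, 90.8 and 113 RPKM in WT (1.2 ± 0.20, limma adjusted p = 0.0085). Both were abundant. HAI1 (AT5G59220), a phosphatase that acts on abscisic acid signalling, had 3.41, 3.42 and 2.92 RPKM in bpc and 0.736, 1.09 and 1.41 RPKM in WT (1.27 ± 0.26, limma adjusted p = 0.024). The sixth, COR15A (AT2G42540), differed by 1.21 (limma adjusted p = 0.030). KIN2 lost its call without any 1 of the 6 BA libraries (1.09 to 1.22) and HAI1 without WT BA replicate 1 or 2 or any bpc BA library (1.11 to 1.33), while RD29A and KIN1 kept theirs under all 27 alternatives. None of 10 CBF, DREB2 and ZAT transcription factors, which act upstream of such genes, was called (median 0.26).

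Of 12 heat-shock genes, 2 were higher and 0 were lower (median 0.17), while 1.29% of all genes were higher and their median was 0.08. HSFA2 (AT2G26150), a heat-stress transcription factor, had 10.4, 10.9 and 16 RPKM in bpc, against 2.35, 3.90 and 4.41 RPKM in WT (1.69 ± 0.25, limma adjusted p = 0.0029), and kept its call under all 27 alternatives. HSP21 (AT4G27670), a small plastid chaperone, had 0.914, 0.780 and 0.905 RPKM in bpc and 0.0915, 0.411 and 0.188 RPKM in WT. HSP21 was under 1 RPKM in every BA library and lost its call under 13 alternatives (0.61 to 1.66), among them the replicate block with all 12 libraries or the 2 BA groups alone, the 2 BA groups alone with no block, a pseudocount of 0.1 or 1 and leaving out WT BA replicate 1 or 3, any bpc BA library, WT vehicle replicate 1 or 2 or bpc vehicle replicate 1. Of 13 hypoxia genes, PCO2 (AT5G39890), a cysteine oxidase that senses oxygen, was higher at 3.32, 3.69 and 3.77 RPKM in bpc and 2.01, 1.68 and 1.64 RPKM in WT (0.85 ± 0.15, limma adjusted p = 0.0099). PCO2 lost its call without bpc BA replicate 2 or 3 (0.82 and 0.83).

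Flavonoid pathway genes were higher in bpc in 4 of 9 tested and lower in 0, with a median of 0.50, while 1.29% of all genes were higher and their median was 0.08. They spanned entry, ring closure, hydroxylation and flavonol formation. This list too was chosen with earlier results of these data known. The 4-coumarate:CoA ligase 4CL3 (AT1G65060) had 33.8, 36.9 and 40.3 RPKM in bpc, against 16.3, 20.2 and 17.1 RPKM in WT (1.03 ± 0.19, limma adjusted p = 0.014). Chalcone isomerase (CHI, AT3G55120) had 97.5, 91.4 and 105 RPKM in bpc and 59.3, 58.6 and 46.8 RPKM in WT (0.83 ± 0.16, limma adjusted p = 0.019). No WT library reached the bpc range in either, and no called gene had such an overlap. Flavonoid 3'-hydroxylase (F3'H, AT5G07990) averaged 27.4 ± 2.45 RPKM in bpc and 15.6 ± 1.57 RPKM in WT (SD, n = 3 each; log2 0.79 ± 0.11, limma adjusted p = 0.0025) and kept its call under all 27 alternatives. Flavonol synthase (FLS1, AT5G08640) had 107, 99.3 and 103 RPKM in bpc and 69.1, 74.0 and 62.3 RPKM in WT (0.59 ± 0.13, limma adjusted p = 0.033), and with WT BA replicate 1 rescaled it did not pass (0.52, limma adjusted p = 0.058). The anthocyanidin glucosyltransferase UGT78D2 (AT5G17050) passed only with the rescaling (0.45 as deposited, limma adjusted p = 0.073, and 0.38 rescaled, limma adjusted p = 0.044), which left 4 higher genes. FLS1 also lost its call without any 1 of the 6 BA libraries (0.53 to 0.65). CHI lost it without WT BA replicate 3 or any bpc BA library (0.72 to 0.88), and 4CL3 without WT BA replicate 1 or 3 or bpc BA replicate 2 or 3 (0.97 to 1.03).

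Of 21 jasmonate genes, 2 were called higher and 1 lower (median 0.28), or 2 higher and 2 lower with WT BA replicate 1 rescaled. Among all genes 1.29% were higher and 1.03% lower as deposited, with a median of 0.08. The vegetative storage protein genes, which jasmonate induces and which lie next to each other, were higher. VSP1 (AT5G24780) had 66.3, 66.2 and 67.6 RPKM in bpc, against 40.2, 40.8 and 47.8 RPKM in WT (0.63 ± 0.11, limma adjusted p = 0.013), and VSP2 (AT5G24770) had 53.8, 46.3 and 36.1 RPKM in bpc and 25.2, 28.0 and 29.3 RPKM in WT (0.70 ± 0.15, limma adjusted p = 0.034). Allene oxide cyclase AOC1 (AT3G25760), of jasmonate synthesis, was lower at 1.37, 1.28 and 1.27 RPKM in bpc and 4.21, 3.55 and 5.48 RPKM in WT (−1.42 ± 0.32, limma adjusted p = 0.038). The lipoxygenase gene LOX3 (AT1G17420), of jasmonate synthesis, passed only with the rescaling (−0.73 as deposited, limma adjusted p = 0.053, and −0.78 rescaled, limma adjusted p = 0.032). VSP1 lost its call without any bpc BA library (0.63 and 0.64), VSP2 without any BA library but bpc BA replicate 3 and with quantile normalization (0.57 to 0.75). AOC1 lost it without any BA library, WT vehicle replicate 1 or bpc vehicle replicate 1 and with no filter (−1.55 to −1.27). Of 18 defence and WRKY genes, WRKY30 (AT5G24110), a transcription factor of oxidative and immune responses, was the only one called as deposited and was lower, at 4.39, 4.47 and 3.95 RPKM in bpc and 7.39, 9.57 and 8.70 RPKM in WT (−0.92 ± 0.19, limma adjusted p = 0.025). With the rescaling ICS1 (AT1G74710), the isochorismate synthase of salicylic acid synthesis, was called higher (0.53, limma adjusted p = 0.049, against 0.60 and 0.060 as deposited). WRKY30 lost its call without WT BA replicate 2 or 3 or any bpc BA library (−0.95 to −0.84).

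The 2 main iron uptake genes of the root surface were lower in bpc. IRT1 (AT4G19690), the ferrous iron transporter, had 31.0, 51.2 and 46.1 RPKM in bpc, against 109, 116 and 106 RPKM in WT (−1.39 ± 0.30, limma adjusted p = 0.029). FRO2 (AT1G01580), the ferric chelate reductase that supplies it, had 6.65, 12.5 and 8.85 RPKM in bpc and 23.3, 27.4 and 23.2 RPKM in WT (−1.39 ± 0.30, limma adjusted p = 0.030). In both, bpc replicate 1 was the lowest library and all bpc libraries lay well under WT. These were 2 of 22 genes of the list (0 higher, median −0.07), while 1.03% of all genes were lower. With WT BA replicate 1 rescaled CYP82C4 (AT4G31940, −1.58, limma adjusted p = 0.046) and FRD3 (AT3G08040, −0.55, limma adjusted p = 0.025) were lower as well. Of 12 phosphate, sulfate, potassium and sodium transporters, HAK5 (AT4G13420), the high-affinity potassium transporter, was lower at 9.02, 11 and 8.65 RPKM in bpc and 18.5, 29.7 and 19.1 RPKM in WT (−1.17 ± 0.26, limma adjusted p = 0.035). With the rescaling the phosphate transporter gene PHT1;2 (AT5G43370), which has a near-identical copy, was lower too (−1.21, limma adjusted p = 0.046). IRT1 and HAK5 lost their calls without any 1 of the 6 BA libraries and with no filter, HAK5 also without WT or bpc vehicle replicate 1 (−1.53 to −1.18 and −1.28 to −0.95). FRO2 lost its call without any BA library but bpc BA replicate 2 and with no filter (−1.43 to −1.18). None of 13 nitrate and ammonium genes was called (median 0).

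Among 19 aquaporins, 1 was higher and 1, PIP2;7, was lower (median 0.17). PIP2;5 (AT3G54820) had 21.8, 16.7 and 23.2 RPKM in bpc, against 7.75, 8.47 and 11.2 RPKM in WT (1.13 ± 0.18, limma adjusted p = 0.0057), so that these 2 plasma membrane water channels moved in opposite directions. Of 21 ethylene genes, EIL1 (AT2G27050), a transcription factor of the ethylene response, was lower at 5.11, 3.79 and 5.57 RPKM in bpc and 13.0, 15.5 and 15.7 RPKM in WT (−1.53 ± 0.16, limma adjusted p = 0.0004). The calls of PIP2;5 and EIL1 held under all 27 alternatives. Beside these lists, 1.29% of all genes were higher and 1.03% were lower.

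In the root cell type lists, the calls were too few to be read apart from the 2.32% of all genes called. RHS10 (AT1G70460), a receptor kinase of root hairs, was higher at 11.5, 10.6 and 11.1 RPKM in bpc and 5.65, 7.73 and 7.20 RPKM in WT (0.66 ± 0.14, limma adjusted p = 0.032), 1 of 20 root hair genes (median 0.14). The summed root hair list ran over 473 to 486 RPKM in bpc and 380 to 466 RPKM in WT, and the part of root hair cell number in this call was not tested. CASP5 (AT5G15290), of the Casparian strip, was higher at 8.41, 9.08 and 7.49 RPKM in bpc and 4.11, 3.78 and 6.23 RPKM in WT (0.79 ± 0.19, limma adjusted p = 0.048), 1 of 18 endodermis genes (median 0.09). With WT BA replicate 1 rescaled CASP5 did not pass (0.72, limma adjusted p = 0.055). RHS10 lost its call without WT BA replicate 1 or 3 or any bpc BA library (0.54 to 0.70), and CASP5 under 15 of the 27 alternatives (0.66 to 0.86), 8 of which left out 1 library (WT BA replicate 1 or 2, any bpc BA library, WT vehicle replicate 1 or 2 or bpc vehicle replicate 1). None was called as deposited of 14 xylem (median −0.03), 4 phloem (0.01), 9 stem cell niche and cap (−0.02), 10 lateral root initiation (−0.02), 16 cell cycle (0.02), 18 circadian clock (0.09) and 7 thalianol and marneral cluster genes (0.01). With the rescaling 1 xylem gene was lower, the secondary wall cellulose synthase CESA7 (AT5G17420; −0.72, limma adjusted p = 0.032, against −0.65 and 0.058 as deposited).

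Of 17 photosynthesis genes tested, none was called (median −0.16, or −0.23 with WT BA replicate 1 rescaled). CGA1 (AT4G26150), a GATA factor that promotes greening and that cytokinin induces, was higher at 1.58, 1.47 and 1.22 RPKM in bpc, against 0.395, 0.473 and 0.609 RPKM in WT (0.96 ± 0.23, limma adjusted p = 0.048), 1 of 3 greening regulators tested. CGA1 was low in both genotypes and lost its call under 12 of 26 alternatives (0.88 to 1.37), among them the replicate block with all 12 libraries, quantile normalization, a pseudocount of 0.1 and leaving out any 1 of the 6 BA libraries, WT vehicle replicate 3 or bpc vehicle replicate 1 or 2. None of 94 plastid-encoded transcripts was called (median 0.05), while 2.32% of all genes were called. Of 46 mitochondrion-encoded transcripts, 1 was called (list median 0.32, or 0.27 with WT BA replicate 1 rescaled), ATMG00690, at 9.01, 9.74 and 8.80 RPKM in bpc and 4.15, 5.87 and 5.25 RPKM in WT (0.80 ± 0.16, limma adjusted p = 0.019). It lost its call without WT BA replicate 1 or 3 or any bpc BA library (0.68 to 0.83). Summed over the genome, mitochondrial transcripts reached 4950 to 6410 RPKM in bpc and 3800 to 5860 RPKM in WT, ranges that overlap.

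**Figure D3:**
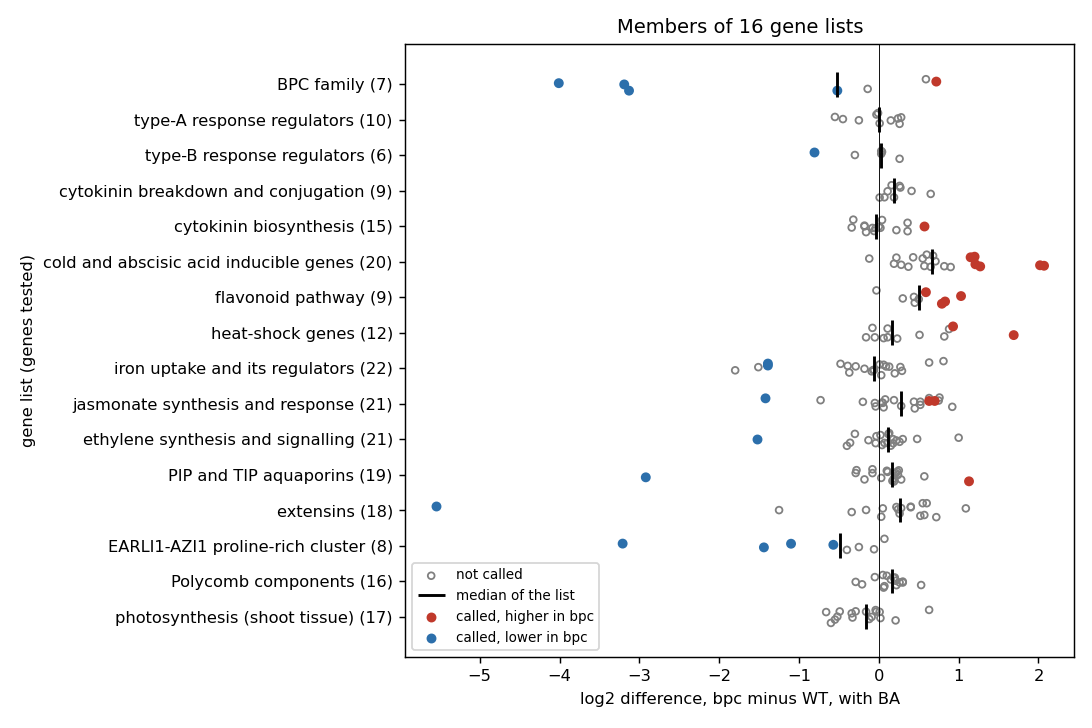
Log2 difference (bpc minus WT, with BA) of every tested member of 16 gene lists, with a black line at the list median, red for genes called higher in bpc, blue for genes called lower and open grey for genes not called. The cold and abscisic acid list (median 0.67) and the flavonoid list (0.50) lie to the right of 0, the EARLI1-AZI1 list (−0.49) lies to the left, and the type-A regulators straddle 0.

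Since BPC proteins bind GA repeats, the promoters of the called genes were searched. The windows were 250 bases before to 50 after the start of each gene in the RefSeq annotation of TAIR10.1, found for 20594 of the 20776 genes. The repeat GAGAGA, on either strand, was in 42.7% of the promoters of the 213 lower genes. It was in 32.1% of 265 promoters of higher genes, against 28.8% of all 20594. Of the 117 genes at least 2-fold lower, 41 held GAGAGA. Of the 12 largest falls 3 held it, as did 3 of the 12 largest rises. The larger falls thus held GAGAGA no more often than the 213 lower genes as a whole. The longer repeat GAGAGAGA, which contains the shorter one, was in 22.5% of the lower genes (48 of 213) and in 5.28% of the higher genes (14 of 265), against 8.53% of all. With WT BA replicate 1 rescaled, the shares of the longer repeat were 20.9% of 369 lower and 5.30% of 264 higher genes. With vehicle they were 21.8% of 225 lower and 6.95% of 187 higher genes. Of the vehicle calls, 64.0% of the lower and 63.5% of the higher genes were also called with BA. The vehicle shares are therefore largely those of the same genes. Among genes lower by at least 2-fold with BA the share was 17.9% (21 of 117). The longer repeat lay in the 250 bases before the start in 9.86% of lower genes, 3.40% of higher genes and 4.62% of all. In the first 50 bases from the start on, the shares were 12.7%, 1.89% and 4.01%. Read as TCTCTCTC on the strand of the gene, the shares were 7.04%, 1.51% and 2.34% before the start. From the start on, those shares were 8.92%, 1.51% and 2.83%. A match is a description of the window and not a binding site, and the shares were not tested.

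**Figure D4:**
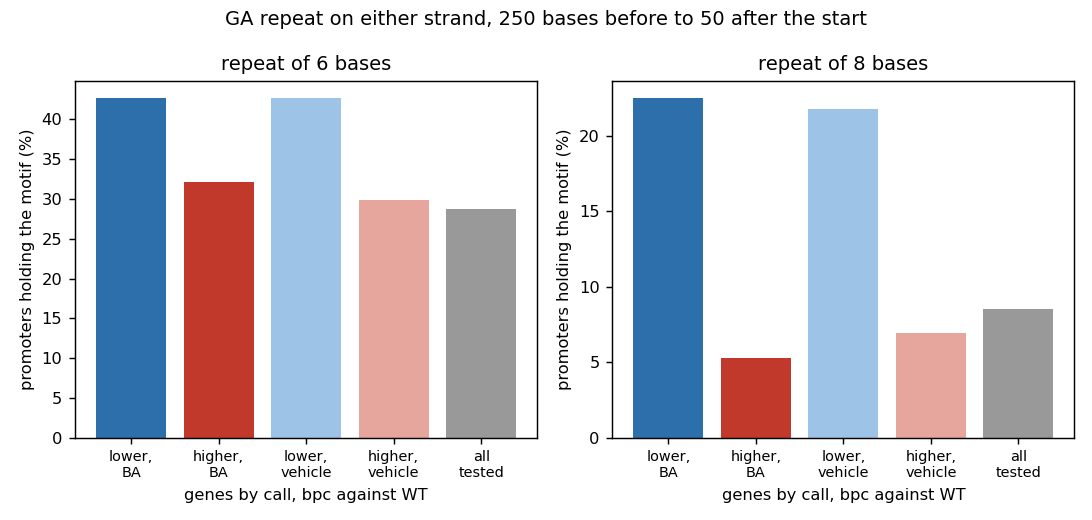
Share (%) of promoters that hold a GA repeat of 6 bases (left) or 8 bases (right) on either strand, for genes called lower (blue) or higher (red) in bpc with BA, for those called with vehicle (pale) and for all genes tested (grey). The lower genes stand above all genes in both panels, 42.7% against 28.8% for 6 bases and 22.5% against 8.53% for 8 bases, with BA.

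The upstream sequences below belong to the 4 lower genes with the largest fall among those of at least 2 RPKM with GAGAGAGA in the 250 bases before the start, and to PI, the higher gene with the largest rise by the same choice. They were read from TAIR10.1, RefSeq, on the strand of the gene, 5′ to 3′, and end at the base before the annotated start. Capitals mark GAGAGAGA or its reverse complement TCTCTCTC, extended over overlapping matches. The windows are chr5:10455682-10455931 (minus strand) for LSH1, chr4:18096219-18096468 (minus) for AT4G38760, chr5:7777767-7778016 (plus) for HCF136, chr5:8154711-8154960 (minus) for WRKY30 and chr5:6828654-6828903 (plus) for PI.
LSH1: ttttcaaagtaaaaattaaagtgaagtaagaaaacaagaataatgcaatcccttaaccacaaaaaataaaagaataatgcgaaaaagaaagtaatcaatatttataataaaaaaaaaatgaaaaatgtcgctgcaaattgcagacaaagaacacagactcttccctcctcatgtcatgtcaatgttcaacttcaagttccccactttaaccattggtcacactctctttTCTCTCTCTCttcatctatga
AT4G38760: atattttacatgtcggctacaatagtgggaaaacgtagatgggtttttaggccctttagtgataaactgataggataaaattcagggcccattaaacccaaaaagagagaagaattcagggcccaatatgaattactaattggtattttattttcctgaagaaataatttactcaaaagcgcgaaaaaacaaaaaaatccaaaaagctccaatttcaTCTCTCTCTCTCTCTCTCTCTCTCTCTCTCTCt
HCF136: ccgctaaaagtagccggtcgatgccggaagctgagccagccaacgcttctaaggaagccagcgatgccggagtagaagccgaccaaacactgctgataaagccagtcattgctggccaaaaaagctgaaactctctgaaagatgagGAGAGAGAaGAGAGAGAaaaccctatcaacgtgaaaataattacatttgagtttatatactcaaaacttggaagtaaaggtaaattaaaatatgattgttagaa
WRKY30: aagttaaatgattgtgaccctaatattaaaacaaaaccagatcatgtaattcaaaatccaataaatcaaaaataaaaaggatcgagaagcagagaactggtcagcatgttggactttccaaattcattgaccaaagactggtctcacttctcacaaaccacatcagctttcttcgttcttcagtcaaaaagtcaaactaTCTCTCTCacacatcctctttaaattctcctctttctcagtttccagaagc
PI: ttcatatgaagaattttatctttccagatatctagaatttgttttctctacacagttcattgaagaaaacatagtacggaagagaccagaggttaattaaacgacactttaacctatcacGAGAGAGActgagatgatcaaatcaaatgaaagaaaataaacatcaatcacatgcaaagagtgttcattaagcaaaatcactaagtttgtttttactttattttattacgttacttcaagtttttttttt

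The repeat ended within 44 bases of the start in 3 of these 4 lower genes, which were chosen because they hold it. Over the 21 lower genes that hold it in those 250 bases, the longest run ended 2 to 242 bases before the start. In AT4G38760 (nucleoporin family) an unbroken run of 32 bases ended 2 bases before the start, and in LSH1 (AT5G28490), a nuclear protein of light-regulated seedling development, a run of 10 bases ended 12 bases before it. In WRKY30 a run of 8 ended 44 bases before the start, in HCF136 2 runs of 8 were parted by a single base, and in PI a run of 8 ended 123 bases away. AT4G38760 had 4.13, 5.24 and 4.95 RPKM in bpc, against 10.4, 9.42 and 12.1 RPKM in WT. LSH1 had 1.39, 1.48 and 1.58 RPKM in bpc and 2.99, 5.18 and 3.40 RPKM in WT. HCF136 (AT5G23120), a photosystem II assembly factor, had 2.37, 2.59 and 1.81 RPKM in bpc and 3.59, 7 and 5.76 RPKM in WT. All 3 fell, by 1.08, 1.1 and 1.08 on the log2 scale (limma adjusted p = 0.0025, 0.019 and 0.025).

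The called genes were spread over the genome. Between 2.06% (chromosome 3) and 2.73% (chromosome 2) of the tested genes were called on each nuclear chromosome. Within 1 Mb either side of the BPC genes the share ran from 0.897% at BPC1 to 2.78% at BPC4. In bins of 1 Mb with at least 20 tested genes the median was 2.13% and the highest 9.52%. Of 478 called genes, 6.90% (33) had a tested neighbour called in the same direction, and 4.49% of the genes not called had a neighbour called in either direction. The longest run was of 3 lower genes, PAR2, AT3G58860 and SADHU10-1. By level, 3.04% of genes in the lowest quartile of mean log2 level and 1.29% in the highest were called.

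Of 116 loci annotated as pseudogenes 9.48% (11, 3 higher and 8 lower) were called, against 2.29% of 20014 protein-coding genes. Of 151 loci annotated as transcribed pseudogenes, 2.65% were called (2 higher and 2 lower). These differences were not tested. Of 9 tested loci of the non-coding retrotransposon family Sadhu, a group singled out after its values were seen, 3 were lower and 0 were higher, while 1.03% of all genes were lower. Beside SADHU10-1 these were SADHU5-1 (AT4G01525), at 3.47, 3.29 and 3.58 RPKM in bpc, against 10.4, 13.4 and 10.8 RPKM in WT, and SADHU1-3 (AT5G28626), at 1.96, 0.644 and 1.24 RPKM in bpc and 4.53, 5.43 and 5.59 RPKM in WT. Their log2 differences were −1.60 ± 0.19 and −1.74 ± 0.22 (limma adjusted p = 0.00087 and 0.0011). The most abundant member, SADHU1-1 (AT2G10410), had 48.2, 48.2 and 43.8 RPKM in bpc and 70.0, 79.3 and 86.9 RPKM in WT and did not pass (−0.74 ± 0.25, limma adjusted p = 0.16).

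The genotype difference with BA was set beside that in the vehicle libraries, which share no library with it but were fitted in the same model. With vehicle, 189 genes (0.91%) were higher and 225 (1.08%) were lower in bpc, 1.99% in all. Same-numbered vehicle libraries of the genotypes deviated together, and a replicate block gave 239 higher and 252 lower genes over all 12 libraries and 390 and 451 in the vehicle libraries alone. Without the block the vehicle libraries alone gave 26 and 54. Of the 268 genes higher with BA, 266 had a positive difference with vehicle, with a median of 0.59 against 0.77 with BA, and 120 were also called, 44.8% of the BA calls and 63.5% of the vehicle calls. Of the 213 lower genes, 211 had a negative difference with vehicle, with a median of −0.93 against −1.07 with BA, and 144 were also called, 67.6% of the BA calls and 64.0% of the vehicle calls. With the block over all 12 libraries 127 of the higher and 148 of the lower genes were called with vehicle, and with the vehicle libraries alone 134 and 150. Without the block, the vehicle libraries alone gave 22 and 52. Over all 20776 genes the log2 differences with BA and with vehicle had a Pearson correlation of 0.68, given as a description across genes.

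The genes with the largest differences illustrate the vehicle values. AT4G08410 stood at 2.03, 0.220 and 0.335 RPKM in bpc with vehicle and 34.3, 39.4 and 82.9 RPKM in WT with vehicle, and NADP-ME1 at 10.7, 11.4 and 10.2 RPKM in bpc with vehicle and 1.77, 1.82 and 1.23 RPKM in WT with vehicle. PIP2;7 had 46.7, 32.5 and 32.0 RPKM in bpc with vehicle and 346, 375 and 291 RPKM in WT with vehicle. Their log2 differences with vehicle were −5.41, 2.43 and −3.18, against −5.55, 2.47 and −2.92 with BA. ARR12 was called with BA and not with vehicle, at 16.3, 14.3 and 19.9 RPKM in bpc with vehicle and 18.5, 18.1 and 26.1 RPKM in WT with vehicle (−0.30, limma adjusted p = 0.44), as were CGA1 (0.06 with vehicle, limma adjusted p = 0.96), LOG8 (0.37, limma adjusted p = 0.15) and AGL19 (−0.42, limma adjusted p = 0.35). For none of these 4 did the test of the difference itself, the genotype by BA interaction, pass (limma adjusted p = 1.0 for each). With the replicate block none of the 4 was called with vehicle either, ARR12 being nearest (limma adjusted p = 0.096 in the vehicle libraries alone).

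The interaction gave 1 gene among 20776 (0.00481%), with 338 at an unadjusted p under 0.05. That gene, AT3G25221, had 0.816, 0.871 and 1.01 RPKM in bpc with BA, was listed at 0 in the 3 WT libraries with BA and the 3 bpc libraries with vehicle, and had 0.683, 0.817 and 1.89 RPKM in WT with vehicle (limma adjusted p = 0.02). It is 105 bases long, and those values correspond to 1 read in each bpc BA library and 1, 1 and 2 reads in the WT vehicle libraries. The other called genes whose sign differed with vehicle were AT1G16445, RSU1 and AT4G12065, named after their values were seen. RSU1 and AT4G12065 were listed at 0 in all 3 bpc BA libraries and stood at 0.970 to 1.50 and 1.06 to 3.63 RPKM in WT with BA.

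**Figure D5:**
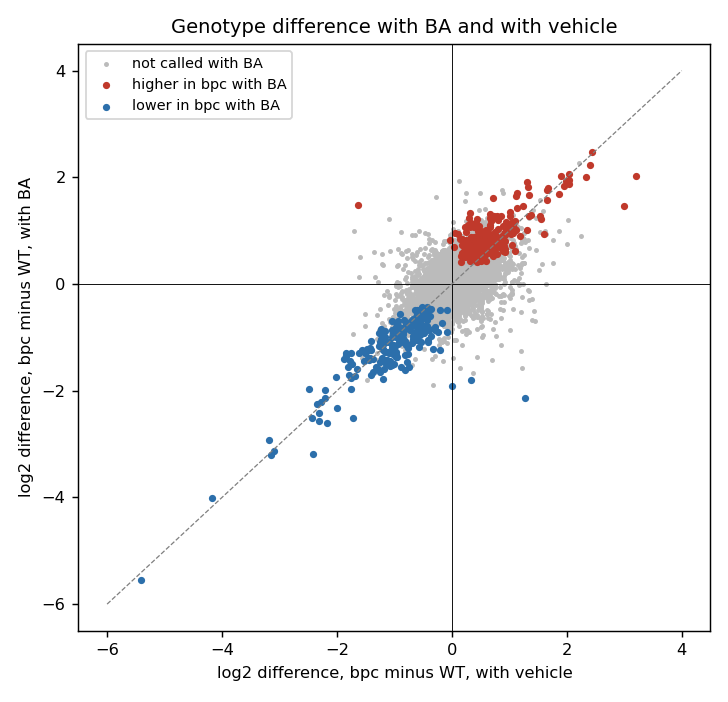
Log2 difference (bpc minus WT) of each of 20776 genes with BA (vertical) and with vehicle (horizontal), red for genes called higher and blue for genes called lower with BA, grey for the rest, with a dashed line of equality. The called genes lie along the line, 266 of 268 red points to the right of 0 and 211 of 213 blue points to the left of 0.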

How the data were processed

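RNA-seq was made from cut roots, 3 libraries in each of 4 groups. The authors deposited RPKM values per gene. The submitters' processing notes name edgeR 3.0, featureCounts, TopHat2 2.0.11, SAMtools 0.1.18, Bowtie 1.1.0 and FastQC, and the TAIR10 build, without roles. No source used here states strand use or read filters. The authors' 3 comparison tables were not used.

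Genes with at least 0.5 RPKM in 3 of 12 libraries were tested on log2(RPKM + 0.5) with limma 3.58.1 in R 4.3.3 (trend, 4 group means, 8 residual degrees of freedom), adjusted by Benjamini-Hochberg over 20776 genes at 0.05. A fold change on this scale understates the change of low genes. Read totals were taken from the steps of low values. Alternatives covered pseudocounts of 0.1 and 1, filters, scaling, a replicate block, fewer groups and leaving out each library. Deviations from the group mean of same-numbered bpc and WT libraries correlated by 0.31, 0.37 and 0.63 with vehicle, where the block is therefore given, but by 0.06, −0.05 and 0.03 with BA; the pairing comes from these values, not from the labels.

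Genes named are the BPC family, the 12 largest called differences each way without overlap and with a mean of at least 2 RPKM in one genotype, up to 4 called members of each list with the smallest p and, where no member of a cytokinin, KNOX or Polycomb list was called, its 2 most abundant members. COR15A, EARLI1, the list members called only with the rescaling, AT4G08400, KNAT1, the Sadhu loci, the genes of the printed promoters and those of opposite sign were chosen after their values were seen. The members and lists were chosen with earlier results of these data known. On simulated data the same test recovered 28.4%, 88.1% and 98.5% of genes changed 1.5-, 2- and 4-fold with BA, with 4 false calls among 20599 genes. Only genes with a mean of at least 2 RPKM were changed, and independent normal noise was drawn from the fitted spread of each gene. Read depth, the scaling of WT BA replicate 1 and deviations shared between libraries were not simulated, so these rates may not hold for the real libraries.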

Additional observations from a re-analysis of the deposited data

Results flagged for a closer look

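The genotype difference of AT3G25221, a gene of 105 bases, differed between BA and vehicle by the interaction test (limma adjusted p = 0.02, log2 3.11 ± 0.35). It was higher in bpc with BA (log2 1.48) and lower in bpc with vehicle (−1.63). Every value above 0 corresponds to 1 or 2 reads in a library, and the call was absent with a pseudocount of 1 and when any 1 BA library or any 1 bpc vehicle library was left out.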

How the results depend on the processing

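Of 71 named genes 57 were called, and 29 of them kept the call under all 27 alternatives; none changed sign. The counts of calls changed with the libraries in the fit, the scaling and the block, and the cause was not tested. For the 268 higher and 213 lower genes with BA, the 2 BA groups fitted alone gave 538 and 357, the fit without both vehicle replicates 3 gave 809 and 457, and scaling to TPM, by median of ratios and by quantiles gave 357, 404 and 384 lower genes. With WT BA replicate 1 rescaled 369 were lower; with the 2 groups alone as well there were 642 and 730, and without both vehicle replicates 3 as well 782 and 869. Leaving out 1 library gave 69 to 365 higher and 101 to 265 lower genes, and 38 to 84 genes at least 2-fold higher. With vehicle, against 189 higher and 225 lower genes, the 2 vehicle groups alone gave 26 and 54, rescaling without both vehicle replicates 3 gave 359 and 346, median-of-ratios and quantile scaling gave 341 and 350 lower genes, and leaving out 1 library gave 71 to 204 and 103 to 231.

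The interaction count of 1 became 4 with no filter, 2 with no trend, with a pseudocount of 0.1 and without both vehicle replicates 3 (rescaled or not), and 0 with a filter of 2 RPKM or a pseudocount of 1; leaving out 1 library gave 0 to 1. Deviations of same-numbered bpc and WT libraries correlated by 0.06, −0.05 and 0.03 with BA and by 0.31, 0.37 and 0.63 with vehicle. The labels do not say whether same-numbered libraries were prepared together, and this was not tested. A replicate block over all 12 libraries gave 318 higher and 226 lower genes with BA; with 2 groups alone the block gave 758 and 470 with BA, 112 at least 2-fold higher, and 390 and 451 with vehicle. Changes of 1.5-fold were mostly not recovered in simulation (28.4%), which did not model read depth.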

Other observations

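AT1G47400 and its neighbour AT1G47395, near-identical copies singled out after their values were seen, were higher in bpc with BA. AT1G47400 had 2.73, 3.31 and 2.93 RPKM in bpc, against 0.548, 0.820 and 0.376 RPKM in WT (log2 1.71 ± 0.34, limma adjusted p = 0.023). AT1G47395 had 5.48, 4.14 and 4.81 RPKM in bpc and 0.458, 2.47 and 1.18 RPKM in WT (1.65 ± 0.37, limma adjusted p = 0.035). In the same libraries IRT1 and FRO2 were lower. AT1G16445, a methyltransferase family gene, had 2.3, 2.56 and 1.98 RPKM in bpc and 1.00, 1.17 and 1.03 RPKM in WT with BA (0.82, limma adjusted p = 0.02), against 1.42, 1.75 and 1.31 RPKM in bpc and 1.84, 1.3 and 1.51 RPKM in WT with vehicle (−0.04).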
